A study of Mus musculus with 3 samples.

Results

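Crx, Otx2, Nrl, Nr2e3, Prdm1, Thrb, Rorb and Rxrg, 8 transcription factors known from photoreceptor development, were followed by name through the raw RNA matrices of 3 single-cell libraries, across the deposited cell types, agonist doses and genotypes. They were 8 of 18823 genes in the explant library, 8 of 17851 in the P0 library and 8 of 17849 in the P14 library. In the explant library, retinas of embryonic day 14 (E14) CD1 wild-type mice were grown for 6 days on Nuclepore membranes with an agonist of the somatostatin receptor Sstr2 at 0, 5, 50 or 500 nM, with 2 samples at each dose. The P0 and P14 libraries came from littermates at postnatal days 0 and 14 with the Sstr2 genotypes +/+ (1 sample), +/- (2 samples) and -/- (2 samples), from a C57BL/6NCrl-Sstr2em1(IMPC)Mbp/Mmucd line outbred to CD1 and carrying a targeted Sstr2 deletion in the -/- and +/- animals. Retinas were dissociated with papain, samples were marked with lipid-anchored barcodes (MULTI-seq) and pooled, and transcripts were read from their 3' ends on the 10x Chromium system. How many retinas entered a sample was not stated in the sources used here, so p-values measure the spread between these samples.

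Photoreceptors are born from neurogenic progenitors that leave the cell cycle. The homeodomain protein Otx2 is needed for their fate and turns on its relative Crx, which drives photoreceptor genes in rods and cones alike, while Prdm1 (Blimp1) represses the bipolar cell fate that Otx2 can also promote. Rorb acts upstream of the leucine zipper factor Nrl, which sets the rod fate together with its target Nr2e3, a nuclear receptor that represses cone genes. Thrb and Rxrg, both nuclear receptors, act in cones, where they pattern opsin expression.

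The explant samples held 318 to 1075 cells and 1281682 to 4237324 unique molecular identifiers (UMIs, counted transcripts), the P0 samples 1018 to 1254 cells and 8822880 to 10793649 UMIs, and the P14 samples 304 to 1000 cells and 1266730 to 5886669 UMIs. Sstr2 RNA at P0 stood at 14.1 CPM (UMIs of a gene per 1000000 UMIs of the cells summed) in the +/+ sample, 22.3 and 33.5 CPM in the +/- samples and 41.0 and 43.3 CPM in the -/- samples. The paper reports higher Sstr2 RNA in neurogenic progenitors of P0 mutants and proposes that Sstr2 signaling may lower Sstr2 transcription. The 3' end of Sstr2 need not lie in the deleted part, so its RNA is no check of the labels, and the -/- samples are called labelled knockout below. At P14 Sstr2 gave 0 to 13 UMIs a sample. Cells with an Xist UMI made up 58.7% and 61.1% of the 0 nM samples, 98.7% and 62.4% at 5 nM, 57.7% and 59.0% at 50 nM and 99.3% and 98.3% at 500 nM, so both 500 nM samples stood apart from both 0 nM samples in the sex of their cells. At P0, 1 heterozygous sample and 1 sample labelled knockout stood at 99.4% and the others at 1.9% to 2.9%. The cells named photoreceptors held the 7 photoreceptor markers (3 of them members) at 4376 to 5101 CPM in sum in the explants and 3574 to 4539 CPM at P0, against 159 to 297 and 319.7 to 484 CPM in amacrine cells, and all 7 were found. The P14 cluster named amacrine cells held 5 horizontal cell markers at 2086 to 7294 CPM in sum beside 6 amacrine markers at 1804 to 2748 CPM. Its name may thus not cover all its cells, which these sums cannot settle. The explant and P0 libraries shared 9 cell barcodes, the explant and P14 libraries 4, and the P0 and P14 libraries 7.

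By GENCODE M21 on GRCm38, Otx2 lay at chr14:48657677-48673819, Crx at chr7:15865947-15879968, Prdm1 at chr10:44437177-44528501, Nrl at chr14:55518978-55524981, Nr2e3 at chr9:59942771-59960659 and Rorb at chr19:18930605-19111196, all on the minus strand. Thrb at chr14:17660261-18038090 and Rxrg at chr1:167598384-167639623 lay on the plus strand. Otx2 overlapped the antisense gene Otx2os1, which had 29 UMIs in the explants, 172 at P0 and 1237 at P14 against 10407, 10129 and 3443 for Otx2. An exon of Gm49154 touched Otx2 and exons of Gm15507 touched Nr2e3 on the same strand as the member, so the counts of both members may hold reads of these genes.

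The stretches just upstream of the annotated starts of Crx, Otx2 and Nr2e3 are shown because these genes stand at successive steps of the path, and because they can be read for TAATCC, the letters that Otx2 and Crx are known to bind, which on the opposite strand read as GGATTA and which the Crx stretch alone of these holds. The sequences are from RefSeq (GRCm38.p6), 5' to 3' on the minus strand, with exon bases left out and the motif in capitals. Crx is at chr7:15879969-15880205, Otx2 (its outermost start in RefSeq) at chr14:48667645-48667894 and Nr2e3 at chr9:59950118-59950329.
Crx: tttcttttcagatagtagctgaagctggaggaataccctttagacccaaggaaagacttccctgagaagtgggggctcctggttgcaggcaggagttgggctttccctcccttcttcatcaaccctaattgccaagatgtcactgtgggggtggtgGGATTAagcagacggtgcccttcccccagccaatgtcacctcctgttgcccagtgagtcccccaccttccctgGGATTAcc
Otx2: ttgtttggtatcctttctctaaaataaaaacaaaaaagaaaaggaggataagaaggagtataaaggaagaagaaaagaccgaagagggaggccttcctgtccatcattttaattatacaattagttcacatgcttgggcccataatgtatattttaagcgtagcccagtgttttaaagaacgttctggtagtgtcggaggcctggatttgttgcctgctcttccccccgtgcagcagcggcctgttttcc
Nr2e3: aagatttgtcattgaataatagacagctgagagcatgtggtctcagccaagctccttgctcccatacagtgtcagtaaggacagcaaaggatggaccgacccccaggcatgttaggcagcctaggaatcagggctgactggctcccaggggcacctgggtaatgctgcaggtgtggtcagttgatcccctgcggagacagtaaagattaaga

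Within the 250 bases before a start, TAATCC in either orientation was found in 3 of the 14 windows of the 8 genes, those being 1 window each of Crx, Otx2 and Thrb, and in 6.3% of 32851 windows of all genes. The Crx window held it 2 times. TGCTGA, the core of the Maf-type sites that Nrl binds, was in 2 of 14 windows against 16.1% of all, and AGGTCA, the nuclear receptor site core, in 2 of 14 against 14% of all. All were searched on both strands (TAATCC is then read as GGATTA, the core of the Maf-type sites as TCAGCA, and the nuclear receptor core as TGACCT), and TGCTGA ends in the letters with which TGACCT begins, so a match of both can overlap. A match is a description of the letters only.

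In explants Otx2 stood at 1459 ± 163 CPM in photoreceptors (SD, n = 8), 701 ± 87.7 CPM in neurogenic progenitors, 87.8 ± 20.9 CPM in progenitors and 41.4 ± 21.4 CPM in amacrine cells. At P0 it was at 807 ± 61.0 CPM in photoreceptors and 541 ± 37.4 CPM in neurogenic progenitors (n = 5). Photoreceptors and neurogenic progenitors did not overlap in either library, whereas explant progenitors (54.3 to 124 CPM) and amacrine cells (17.7 to 84.5 CPM) did. At P14 the order was different: bipolar cells, which keep Otx2 as a maintenance factor, stood at 452 ± 18.2 CPM, rods at 216 ± 11.7 CPM and cones at 138 ± 54.0 CPM, with no overlap among these types. Because rods were the most numerous cells, they still held 51.8% of all Otx2 UMIs at P14 and bipolar cells 41.1%. No test was made between cell types, since the deposited names came from clusters of the same genes.

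Crx too was higher in photoreceptors than in neurogenic progenitors. It stood at 459 ± 35.8 CPM in explant photoreceptors and at 111 ± 38.0 CPM in neurogenic progenitors (n = 8), and at 260.1 ± 20.3 and 38.5 ± 5.35 CPM at P0 (n = 5). At P14 rods had 625 ± 11.6 CPM and cones 562 ± 44.8 CPM with ranges that met, and bipolar cells had 211 ± 30.7 CPM. In P0 retinal ganglion cells, the deepest cells with a median of 24853 UMIs, no Crx or Nr2e3 UMI was counted in 85 cells, which allows a share of cells with such a UMI of up to 3.53% and sets no limit on cells that express the genes without a counted UMI.

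Prdm1 accompanied Otx2 at the early ages and was low at P14. It was at 315 ± 41.3 CPM in explant photoreceptors and 125 ± 22.5 CPM in neurogenic progenitors (n = 8), and at 303 ± 52.6 and 139.5 ± 14.8 CPM at P0 (n = 5). At P14 rods held 30.8 ± 5.41 CPM and cones 37.9 ± 13.9 CPM, with overlapping ranges, and bipolar cells 6.57 ± 4.66 CPM. The lowest P0 photoreceptor value, 228 CPM, was thus far above the highest rod value, 39.3 CPM, but age and library cannot be told apart in these files.

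The rod factors lay almost wholly in the photoreceptor cluster. Of all Nrl UMIs in the explants 92.4% lay in photoreceptors, and of all Nr2e3 UMIs 94.0%. Nrl stood at 290.0 ± 40.9 CPM in explant photoreceptors, 362 ± 64.3 CPM in P0 photoreceptors and 1897 ± 164 CPM in P14 rods. Nr2e3 stood at 750.4 ± 155, 591 ± 53.6 and 2241 ± 233 CPM in the same classes. P14 cones held 425 ± 201 CPM of Nrl and 565 ± 234 CPM of Nr2e3. The explant and P0 photoreceptors are not divided into rods and cones, and age and library cannot be told apart here. In neurogenic progenitors both were low, Nrl at 8.46 ± 8.14 CPM and Nr2e3 at 12.4 ± 11.2 CPM in explants, which overlapped the values of progenitors and amacrine cells.

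At P14 Thrb and Rxrg were higher in cones than in rods. Rods, the more numerous cells, still held 46.9% of the Thrb UMIs and cones 37.4%. Cones stood at 492 ± 56.0 CPM of Thrb and rods at 91.5 ± 7.35 CPM (n = 5 each), without overlap, and Thrb was at 157 ± 35.9 CPM in explant photoreceptors and 92.5 ± 24.3 CPM at P0. Rxrg was sparse throughout, with 35.0 ± 15.9 CPM in cones and 0.662 ± 0.610 CPM in rods, where 6 UMIs were counted in 2271 cells, and cones held 81.7% of its P14 UMIs. At P0 Rxrg was also found in retinal ganglion cells, which held 58.1 ± 9.74 CPM against 47.8 ± 16.6 CPM in photoreceptors. The ganglion cell samples, at 54.0, 71.7, 50.6, 49.2 and 64.8 CPM, overlapped those of the photoreceptors, and in cells thinned to 1500 UMIs an Rxrg UMI was found in 3.85% ± 5.4 of ganglion cells, 8.58% ± 2.7 of photoreceptors and 0.0663% ± 0.15 of progenitors (median depths 24853, 4534.5 and 8759 UMIs). At 2500 UMIs the order turned, with 20.1% ± 3.5 of ganglion cells and 11.4% ± 2.3 of photoreceptors, and unthinned the shares were 62.3% and 20.4%, so no order between these types is read from them.

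Rorb was broad. In explants it ranged from 1068 ± 169 CPM in the cells named ganglion cells (n = 7) to 1583 ± 74.5 CPM in neurogenic progenitors (n = 8). The paper states that its explants lacked viable ganglion cells. The explant cells so named held 12.1 ± 13.8 CPM of Rxrg, on 8 UMIs in all. In P0 ganglion cells it stood at 58.1 ± 9.74 CPM, on 133 UMIs, and the difference was not tested. At P0 the order of Rorb was neurogenic progenitors (2884 ± 136 CPM), amacrine cells (2381 ± 87.2), photoreceptors (2013 ± 145), progenitors (1516 ± 58.6) and ganglion cells (493 ± 44.7), with no overlap between neighbours, although amacrine cells and photoreceptors adjoined closely. At P14 cones stood at 350 ± 48.7 CPM, rods at 525 ± 91.7 CPM and bipolar cells at 529 ± 87.0 CPM, with overlapping ranges, beside Muller glia at 1024 ± 169 CPM and amacrine cells at 956 ± 147 CPM (n = 3).

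**Figure D1:**
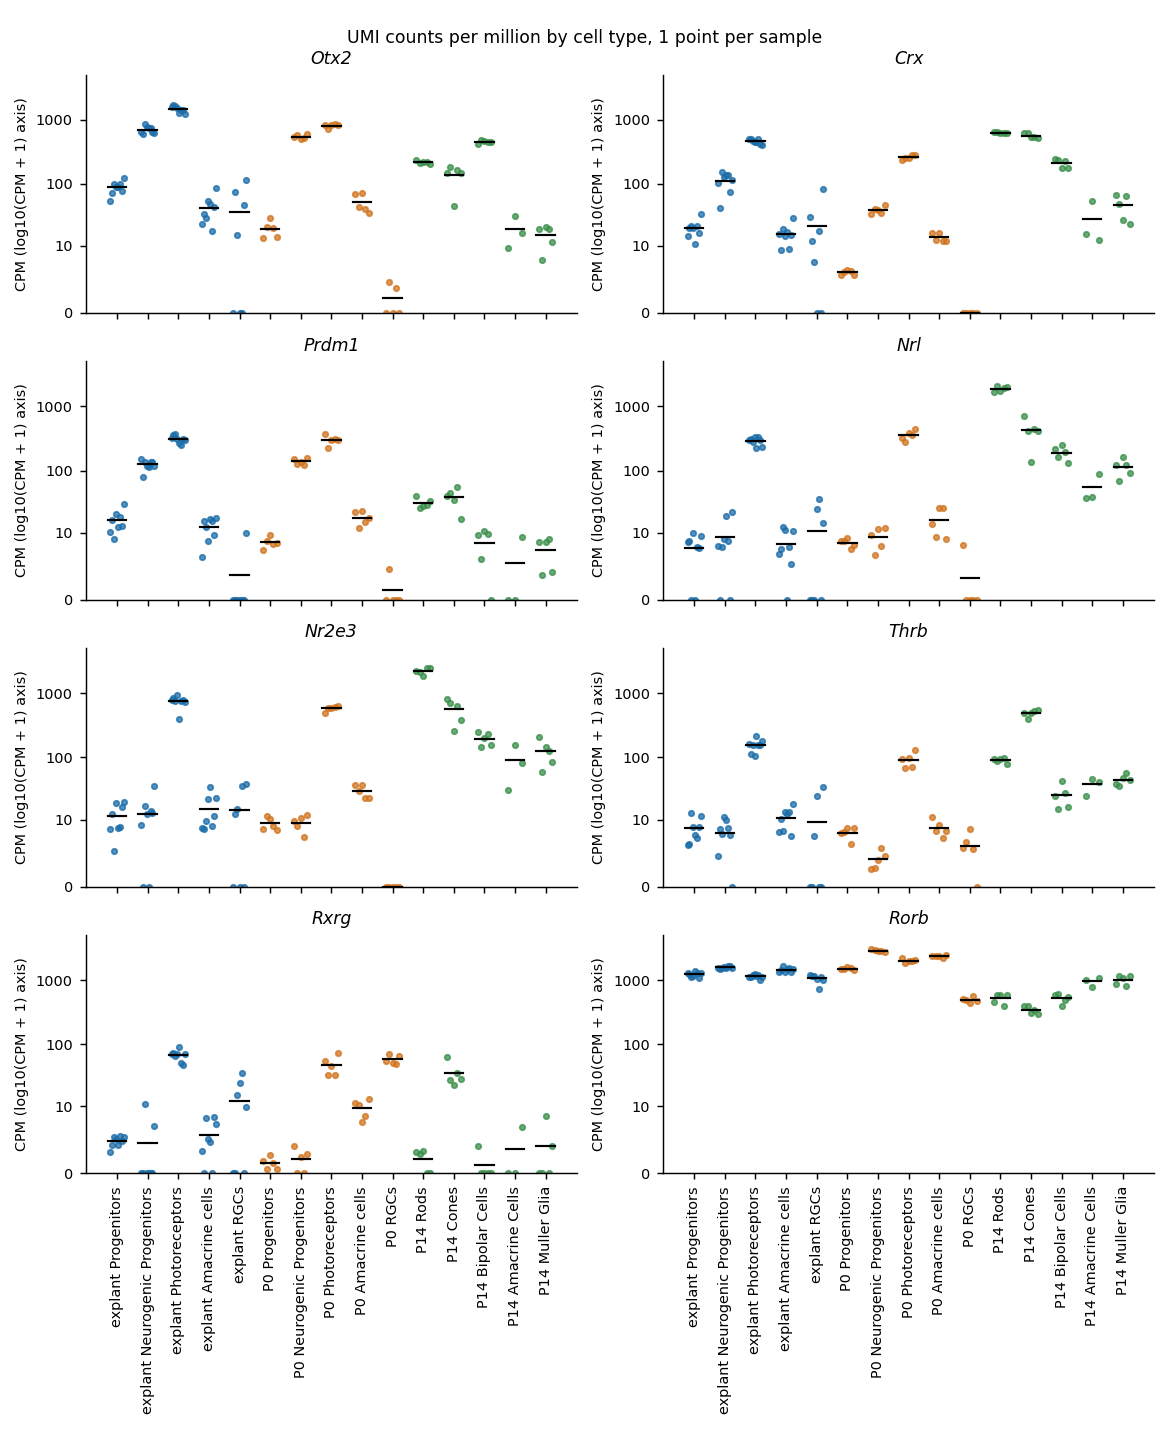
UMI counts in CPM (y axis, log10(CPM + 1)) of the 8 genes in each cell type of the explant (blue), P0 (orange) and P14 (green) libraries. Each point is a sample with at least 10 cells of that type and each line the mean. Otx2 is high from neurogenic progenitors on, Nrl and Nr2e3 peak in P14 rods at 1897 and 2241 CPM, Thrb peaks in cones at 492 CPM, and Rorb lies at 299.7 CPM or above in every sample, the lowest being a P14 cone sample.

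The shares of positive cells were compared at 1 depth. With every cell thinned to 1500 UMIs, an Otx2 UMI was found in 84.5% ± 5.2 of explant photoreceptors, 58.4% ± 6.4 of neurogenic progenitors, 10.4% ± 3.5 of progenitors and 5.92% ± 3.4 of amacrine cells (n = 8), with 2.85% ± 4.4 in the cells named ganglion cells (n = 7). The median depths before thinning were 2642.5 UMIs in photoreceptors and 3079.5 in the cells named ganglion cells. At P14 Nrl was found in 91.6% ± 2.2 of rods and Nr2e3 in 92.1% ± 4.3 (n = 5). In cones Nrl was found in 34.6% ± 17.4 and Nr2e3 in 42.1% ± 12.6 (n = 5, 115 cells, median depth 10245 UMIs). Nrl was also found in 18.0% ± 3.7 of Muller glia and 21.3% ± 4.0 of bipolar cells, with median depths of 3374 UMIs in rods, 15108 in Muller glia and 3939.5 in bipolar cells. At 2500 UMIs the Nrl shares were 29.6% ± 3.7 of bipolar cells and 21.8% ± 10.3 of Muller glia, with overlapping samples at both depths, and how much of either is free RNA was not tested.

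Within photoreceptors, the rod factors Nrl and Nr2e3 were found together in more cells, and each with Thrb in fewer cells, than their separate shares would give, described here without a test. Among 1660 explant photoreceptors thinned to 1500 UMIs, Nrl and Nr2e3 were found together in 341 cells against 198 expected from the separate shares, a ratio of 1.72 (1.55 to 1.95 over 8 samples). At P0 it was 326 against 175 cells, a ratio of 1.86 (1.72 to 2.14 over 5 samples). Nrl and Thrb shared 57 cells against 91.5 expected in explants and 21 against 41.8 at P0, and Nr2e3 and Thrb had ratios of 0.708 and 0.643. The Nr2e3 and Thrb ratio was below 1 in all samples of both libraries, at 0.542 to 0.962 and 0.516 to 0.720, whereas the Nrl and Thrb ratio reached 1.08 in 1 explant sample. Prdm1 and Thrb had ratios of 0.696 and 0.658 (0.318 to 1.12 and 0.485 to 0.883 over samples). Rxrg had ratios of 1.04 and 1.18 with Nr2e3 (0.478 to 1.40 and 1.02 to 1.42 over samples) and of 1.00 and 0.938 with Nrl (0.647 to 1.23 and 0.771 to 1.45), on either side of 1 apart from Nr2e3 at P0. Thrb and Rxrg themselves shared 34 cells against 26.1 expected in explants and 24 against 9.10 at P0. Their ratios over samples were 0.955 to 2.49 and 1.575 to 3.18. Either of Nrl and Nr2e3 with either of Thrb and Rxrg had median ratios over samples of 0.918 and 0.912. These ran from 0.679 to 1.05 in explants and from 0.777 to 1.02 at P0.

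Thrb and Rxrg made up 12.1% to 20.8% of the Nrl, Nr2e3, Thrb and Rxrg UMIs in photoreceptors of 7 explant samples and 33.1% in the first 50 nM sample, whose Nr2e3, a part of this share, was the lowest at 399.6 CPM. At P0 this share was 9.77% to 15.5%, in P14 rods 1.74% to 2.60%, and in P14 cones 27.0% to 56.8%.

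The explants addressed whether activating Sstr2 changes photoreceptor differentiation. Within the photoreceptor cluster Otx2 and Crx were somewhat lower at 500 nM, but none of the 8 members passed the test there. Otx2 CPM were 1579 and 1673 without agonist, 1609 and 1525 with 5 nM, 1251 and 1395 with 50 nM, and 1397 and 1240.2 with 500 nM. Both 500 nM samples lay below both 0 nM samples, with a log2 fold change of -0.28 (SE 0.09, edgeR quasi-likelihood adjusted p = 0.635). Crx CPM were 498 and 499 without agonist, 466 and 443 with 5 nM, 444 and 491 with 50 nM, and 425 and 403.5 with 500 nM. Again the 500 nM samples were the lower, at -0.25 (SE 0.11, edgeR adjusted p = 0.843).

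Nrl went from 305 and 309 CPM without agonist to 298 and 232 CPM with 500 nM, and Prdm1 328 and 359 against 317 and 300.1 CPM. These groups too did not overlap, with log2 fold changes of -0.17 (SE 0.13) and -0.12 (SE 0.12). Nr2e3 (786 and 831 against 799 and 731 CPM), Thrb (166 and 115 against 156 and 181 CPM), Rorb (1105 and 1124 against 995 and 1109 CPM) and Rxrg (71.3 and 73.1 against 47.9 and 71.5 CPM) overlapped between doses. In all, 4 of 8 members were apart and lower, where 18.3% of the 7440 genes tested were apart and lower, and 0.0941% of genes were called. By an unadjusted p under 0.05, 2 of 8 members and 5.66% of all genes passed in edgeR, and none of the 8 was called by DESeq2 or limma after adjustment.

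**Figure D2:**
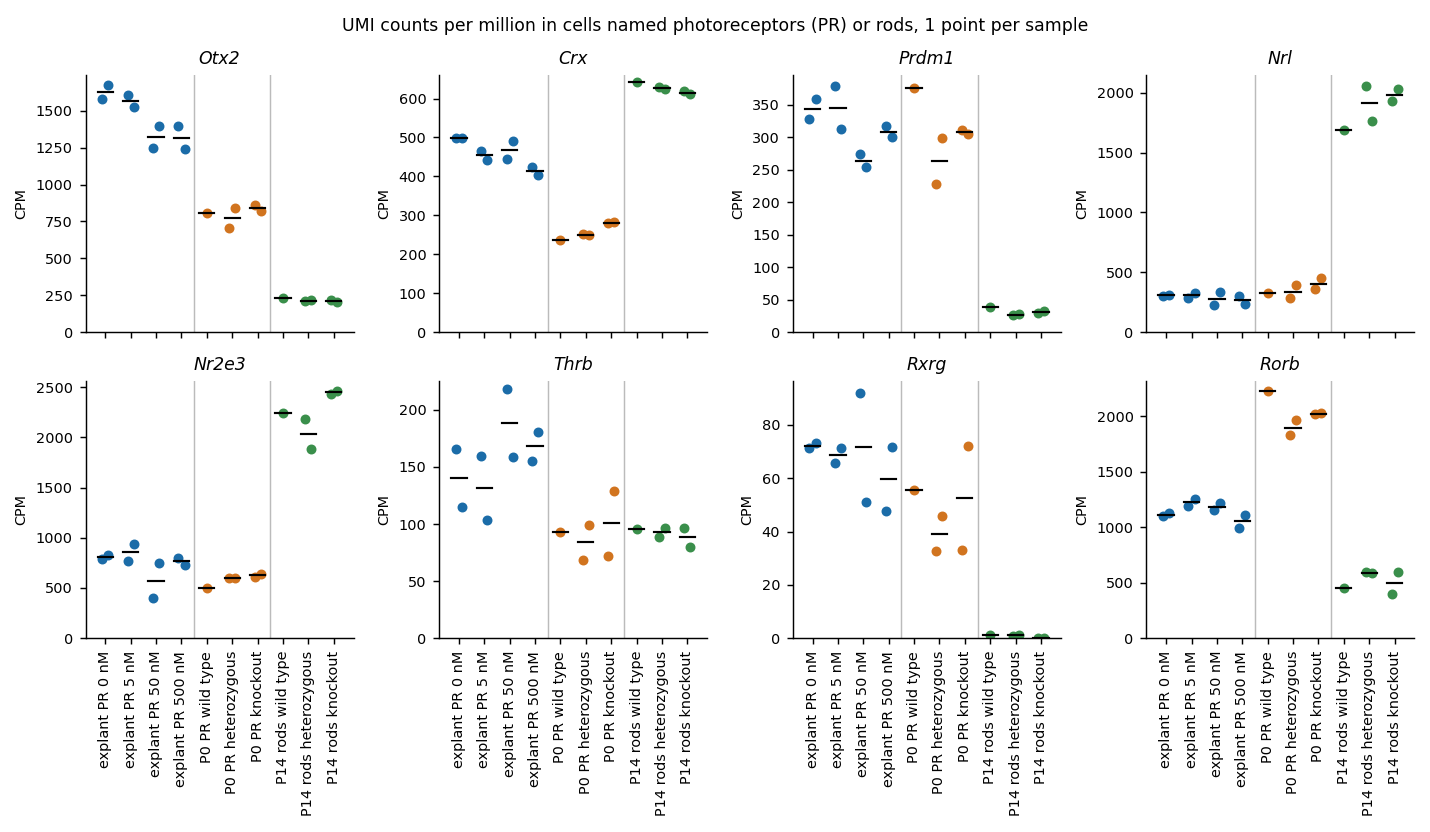
UMI counts in CPM (y axis, from 0) of the 8 genes in explant photoreceptors by dose (blue), P0 photoreceptors by labelled genotype (orange) and P14 rods by labelled genotype (green), with 1 point per sample and a line at the mean. Otx2 in explants stands at 1579 and 1673 CPM at 0 nM and, without passing the test, at 1397 and 1240.2 CPM at 500 nM, and Nr2e3 has its low point at 399.6 CPM in a 50 nM sample.

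Summed over all cells of a sample, all members but Rorb had lower log2 fold changes at 500 nM than within the cluster. This gap was not tested. In such a sum fewer cells of a type and less RNA per cell cannot be told apart, and the cells named photoreceptors were 37.5% and 34.3% of the 0 nM samples and 32.4% and 18.1% of the 500 nM samples. Otx2 read 519.7 and 538 CPM at 0 nM against 459.7 and 339.5 CPM at 500 nM (log2 fold change -0.41, SE 0.12, edgeR adjusted p = 0.223). Crx went from 155 and 139 to 121 and 99.0 CPM (-0.43, SE 0.14, edgeR adjusted p = 0.244), and Nrl from 85.4 and 80.6 to 73.6 and 43.5 CPM (-0.53, SE 0.20, edgeR adjusted p = 0.353). The second 500 nM sample was the lowest of each pair. Nr2e3, Prdm1 and Rxrg were also apart and lower, at -0.40 (SE 0.20), -0.32 (SE 0.15) and -0.49 (SE 0.24), which makes 6 of 8 members beside 19.3% of all 11389 genes tested. Thrb (-0.11, SE 0.20) and Rorb (-0.04, SE 0.07) overlapped between doses. None of the 8 was called by edgeR, DESeq2 or limma, 4 of 8 and 10.9% of all genes had an unadjusted edgeR p under 0.05, and 0.193% of all genes were called. Without the first 500 nM sample, Otx2 (-0.66, edgeR adjusted p = 0.00196), Crx (-0.60, edgeR adjusted p = 0.0261), Nrl (-0.96, edgeR adjusted p = 0.00548) and Nr2e3 (-0.79, edgeR adjusted p = 0.0201) were called, and without the second they were at -0.20, -0.29, -0.18 and -0.089 with no call, and Prdm1 at -0.55 and -0.12. These 4 were also called without a filter on low counts (edgeR adjusted p = 0.000558 for Otx2, 0.0230 for Crx, 0.0163 for Nrl and 0.0188 for Nr2e3). In the fits without a 500 nM sample the 1 sample left at 500 nM is assumed to vary like the other doses. In cells with an Xist UMI alone Otx2 was -0.42, Crx -0.37, Nrl -0.43 and Nr2e3 -0.21, none called. The part of the photoreceptor share in these sums was not tested.

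In amacrine cells Otx2 was higher at 500 nM and passed the test. Amacrine cells of the 8 explant samples held 22.6 and 32.7 CPM of Otx2 without agonist, 28.4 and 53.4 with 5 nM, 48.3 and 17.7 with 50 nM, and 43.7 and 84.5 with 500 nM. The 500 nM samples lay above both 0 nM samples, and the 5 and 50 nM samples ran from 17.7 to 53.4 CPM. The log2 fold change was 1.34 (SE 0.29, edgeR adjusted p = 0.0105), where 0.269% of the 8188 genes tested were called. The call was lost with DESeq2 (1.24, adjusted p = 0.9997), without the cells marked as doublets (0.91, edgeR adjusted p = 0.611), in cells with an Xist UMI alone (1.12, edgeR adjusted p = 0.264), without the first 0 nM sample (1.00, edgeR adjusted p = 0.807) and without the second 500 nM sample (0.79, edgeR adjusted p = 0.9996).

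The counts behind it were small. Otx2 was counted in 33 of 355 and 14 of 124 amacrine cells at 0 nM (9.30% and 11.3%) and in 22 of 163 and 47 of 195 at 500 nM (13.5% and 24.1%), mostly with 1 or 2 UMIs a cell. Cells with 3 or more Otx2 UMIs numbered 1 and 1 at 0 nM and 3 and 6 at 500 nM. The other photoreceptor markers of the marker list were summed without Otx2 over all amacrine cells of each sample. They stood at 139 and 162 CPM at 0 nM, 218 and 178 at 5 nM, 141 and 142 at 50 nM, and 178 and 213 at 500 nM. The highest sum was thus in the first 5 nM sample, where Otx2 was at 28.4 CPM. The amacrine marker list, with all 6 genes found, stood at 2216 to 2918 CPM over the 8 samples. The 178 amacrine cells with Otx2 held a photoreceptor marker (any UMI of Crx, Rcvrn, Neurod1, Prdm1, Rbp3 or Aipl1) in 55.1% of cases and Crx in 14.0%, against 41.9% and 5.36% of the 1194 without, while Pax6, an amacrine and progenitor factor, was in 95.5% and 97.1%. The cone gene Gngt2 was in 23.0% of the cells with Otx2 and 9.80% of those without, and the cone gene Gnb3 in 20.2% and 8.46%. The median depths of these cells were 4773.5 and 4742 UMIs. The part of photoreceptor RNA in this difference was not tested further.

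Nr2e3, Prdm1, Crx and Thrb leaned the same way in amacrine cells without passing the test, and Rorb hardly differed. Nrl and Rxrg did not pass the filter on low counts there. Nr2e3 had a log2 fold change of 1.27 (SE 0.53, edgeR adjusted p = 0.857), Prdm1 0.95 (SE 0.57), Crx 0.71 (SE 0.40), Thrb 0.69 (SE 0.57) and Rorb 0.03 (SE 0.09). Of the 6 members tested, Otx2 and Nr2e3 were apart and higher, beside 16.6% of all genes, and both had an unadjusted edgeR p under 0.05, as 5.28% of all genes did. Over the 8 samples Nr2e3 had 88 UMIs, Prdm1 69, Thrb 66 and Crx 101. Each could thus pass the filter on low counts through the samples where it was high, so their lean is a description only.

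In progenitors Otx2 CPM were 54.3 and 71.6 without agonist, 99.5 and 87.8 with 5 nM, 90.2 and 98.5 with 50 nM, and 76.6 and 124 with 500 nM. Both 0 nM samples were the lowest of the 8, and the log2 fold change at 500 nM was 0.69 (SE 0.20, edgeR adjusted p = 0.143). It was called without the first 500 nM sample (0.94, SE 0.20, edgeR adjusted p = 0.000385). Nr2e3 (0.93, SE 0.50) and Thrb (1.41, SE 0.67) were also apart and higher, at 17.8 against 9.65 CPM and 9.46 against 3.49 CPM in the means, so 3 of the 6 members tested were, beside 22.8% of all genes. Over the 8 samples Nr2e3 had 101 UMIs and Thrb 54. With so few, a gene can pass the filter on low counts through the samples where it is high, so this count is a description only. None of the 6 members was called by edgeR (2 of 6 had an unadjusted p under 0.05, as did 8.63% of all genes), DESeq2 or limma, and 0.317% of genes were. In neurogenic progenitors no difference in Otx2 was detectable, with 618 CPM at 0 nM and 635 CPM at 500 nM in the means, or 0.02 on the log2 scale (SE 0.12, edgeR adjusted p = 0.991), and Crx (0.28, SE 0.28), Prdm1 (0.04, SE 0.23) and Rorb (0.08, SE 0.09) overlapped between doses. None of these 4 was called by edgeR, DESeq2 or limma, none had an unadjusted edgeR p under 0.05 (5.24% of all genes did), and 0.0988% of genes were called.

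The difference between cell types was tested in a fit with the sample as a block. The Otx2 change in amacrine cells exceeded that in photoreceptors by 1.60 on the log2 scale (SE 0.27, edgeR adjusted p = 4.48e-05), where 0.0901% of 8882 genes were called. In progenitors it exceeded it by 0.97 (SE 0.23, edgeR adjusted p = 0.0737), which did not pass, beside 0.1% of 8983 genes called, and without the first 500 nM sample it did (1.31, edgeR adjusted p = 1.31e-06). The amacrine difference was 1.21 without the marked doublets (edgeR adjusted p = 0.0803) and 1.41 in cells with an Xist UMI (edgeR adjusted p = 0.0172). It was not called without the second 500 nM sample (edgeR adjusted p = 0.988) or without the first 0 nM sample (edgeR adjusted p = 0.324).

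**Figure D3:**
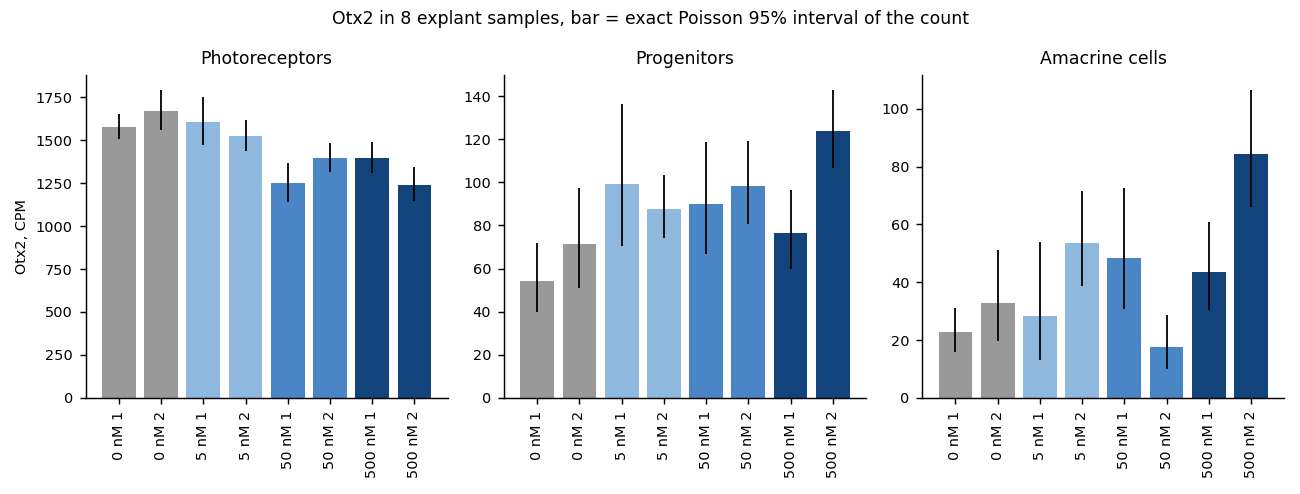
Otx2 in CPM (y axis, from 0, each panel on its own scale) in photoreceptors, progenitors and amacrine cells of the 8 explant samples, with exact Poisson 95% intervals that cover counting error only. In amacrine cells the second 500 nM sample stands highest at 84.5 CPM, and in photoreceptors it stands lowest at 1240.2 CPM.

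The P0 samples addressed whether loss of Sstr2 changes photoreceptor development at birth, with the direction resting on genotype labels that Sstr2 RNA cannot check. In photoreceptors all 8 members had log2 fold changes above 0 in the samples labelled knockout, from 0.02 to 0.31, and none passed the test. The sign was not stable for 4 of them, since with 1 sample left out Prdm1 went to -0.13, Thrb to -0.25, Rorb to -0.052 and Rxrg to -0.39, and against the +/+ sample alone Prdm1, Rorb and Rxrg were below 0. Crx read 237 CPM in the +/+ sample (exact Poisson 95% interval 213 to 263, counting error only), 252 and 249 CPM in the +/- samples and 279.7 and 283 CPM in those labelled knockout. The latter lay above the other 3, at 0.20 (SE 0.09, edgeR adjusted p = 0.856). Nr2e3 read 500.3, 596 and 600.3 CPM against 613 and 643 CPM, apart as well, at 0.16 (SE 0.10, edgeR adjusted p = 0.909). Nrl read 329, 281 and 391.5 CPM against 358 and 451.5 CPM, which overlapped, at 0.29 (SE 0.14, edgeR adjusted p = 0.861).

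Otx2 (0.11, SE 0.10), Prdm1 (0.05, SE 0.17), Thrb (0.24, SE 0.21), Rorb (0.02, SE 0.09) and Rxrg (0.31, SE 0.28) overlapped between genotypes. Thrb and Rxrg were highest in 1 sample labelled knockout, at 129 and 72.1 CPM, and among the lower ones in the other, at 72.0 and 33.2 CPM. Thus 2 of 8 members were apart and higher beside 10.5% of the 9574 genes tested, of which 0.0209% were called. By an unadjusted edgeR p under 0.05, 1 of 8 and 5.83% of all genes passed, and DESeq2 and limma called none.

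In P0 amacrine cells Otx2 and 3 more members were lower in the samples labelled knockout, and none passed the test. Otx2 read 68.3, 42.7 and 70.8 CPM in the +/+ and +/- samples and 40.6 and 35.0 CPM in those labelled knockout, a log2 fold change of -0.69 (SE 0.20, edgeR adjusted p = 0.998). Crx (-0.33, SE 0.28), Nr2e3 (-0.58, SE 0.20) and Thrb (-0.60, SE 0.42, on 61 UMIs over the 5 samples) were also apart and lower, 4 of 8 members beside 10.5% of all genes. Prdm1 (-0.23, SE 0.29), Rorb (-0.026, SE 0.06), Nrl (0.011, SE 0.47) and Rxrg (0.22, SE 0.42) overlapped. None was called by edgeR, DESeq2 or limma, 2 of 8 had an unadjusted edgeR p under 0.05 (4.16% of all genes), and 0.0102% of genes were called. These UMIs lay in few cells: 85 of 1013 amacrine cells had Otx2, up to 22 UMIs in 1 cell, and in the +/+ sample 101 of its 119 UMIs were in 11 cells. The cells with Otx2 had Crx in 47.1% of cases and a photoreceptor marker of the same list in 84.7%, against 1.94% and 41.1% of those without, at median depths of 10497 and 7254.5 UMIs. In the fit with the sample as a block, the Otx2 change in amacrine cells minus that in photoreceptors was -0.78 (SE 0.18, edgeR adjusted p = 0.215), where 0.0355% of genes were called. Without the cells of highest doublet score the Otx2 value in amacrine cells was -0.60 (SE 0.20, edgeR adjusted p = 0.998). The part of photoreceptor RNA in it was not tested.

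Summed over all P0 cells, Otx2 was apart and lower in the samples labelled knockout (184 against 209.6 CPM in the means, -0.20, SE 0.07, edgeR adjusted p = 0.822), beside 9.09% of all genes, of which 0.00756% were called. It was the 1 member of 8 with an unadjusted edgeR p under 0.05 (5.74% of all genes), and DESeq2 and limma called none. The other 7 overlapped, and photoreceptors were 17.5% and 21.6% of the cells of the samples labelled knockout and 18.6% to 23.2% of the others. Rxrg in ganglion cells did not differ beyond its spread (57.0 against 58.8 CPM, -0.13, SE 0.27).

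At P14 the members differed little between genotypes in rods. Nr2e3 read 2238, 2182 and 1885 CPM in the +/+ and +/- samples and 2436 and 2462 CPM in those labelled knockout. These were apart and higher at 0.21 (SE 0.09, edgeR adjusted p = 0.9998), beside 10.3% of the 8979 genes tested. Crx read 642, 630.5 and 624 against 619 and 611 CPM, apart and lower at -0.05 (SE 0.08), beside 8.88%. Nrl read 1690 to 2061 against 1932 and 2034 CPM and overlapped (0.10, SE 0.10), as did Otx2 (-0.06, SE 0.10), Prdm1 (-0.06, SE 0.22), Thrb (-0.09, SE 0.13) and Rorb (-0.13, SE 0.16). Of 7 members tested in rods none was called by edgeR, DESeq2 or limma, 1 had an unadjusted edgeR p under 0.05 (3.61% of all genes), and 0.0111% of genes were called.

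The cones numbered 34, 20, 11, 34 and 16 cells a sample, so their values were loose. Thrb read 502, 398 and 495 CPM in the +/+ and +/- samples against 524 and 543 CPM, apart and higher (0.19, SE 0.18) beside 9.86% of 4148 genes, and Crx 609, 612 and 539.7 against 530.0 and 520.2 CPM, apart and lower (-0.19, SE 0.17) beside 9.16%. Nrl ranged from 135 to 701 CPM and Nr2e3 from 259 to 823 CPM over the 5 samples, with the lowest of both in the sample of 11 cells. None of 7 members was called by edgeR, DESeq2 or limma, none had an unadjusted edgeR p under 0.05 (4.07% of all genes), and 0.0241% of genes were called. Bipolar Otx2 read 425, 475 and 458 CPM against 449 and 453 CPM (0.02, SE 0.20), which overlapped. Summed over all P14 cells, Crx (361 against 437 CPM in the means, -0.32, SE 0.13, edgeR adjusted p = 0.853) and Otx2 (198 against 209.6 CPM, -0.12, SE 0.11) were apart and lower, beside 8.62% of all genes. None of the 8 was called by edgeR, DESeq2 or limma, 1 had an unadjusted edgeR p under 0.05 (5.48% of all genes), and 0.0084% were called. Rods were 53.9% and 71.4% of the cells of the samples labelled knockout and 66.8% to 80.9% of the others, and their part in these sums was not tested.

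**Figure D4:**
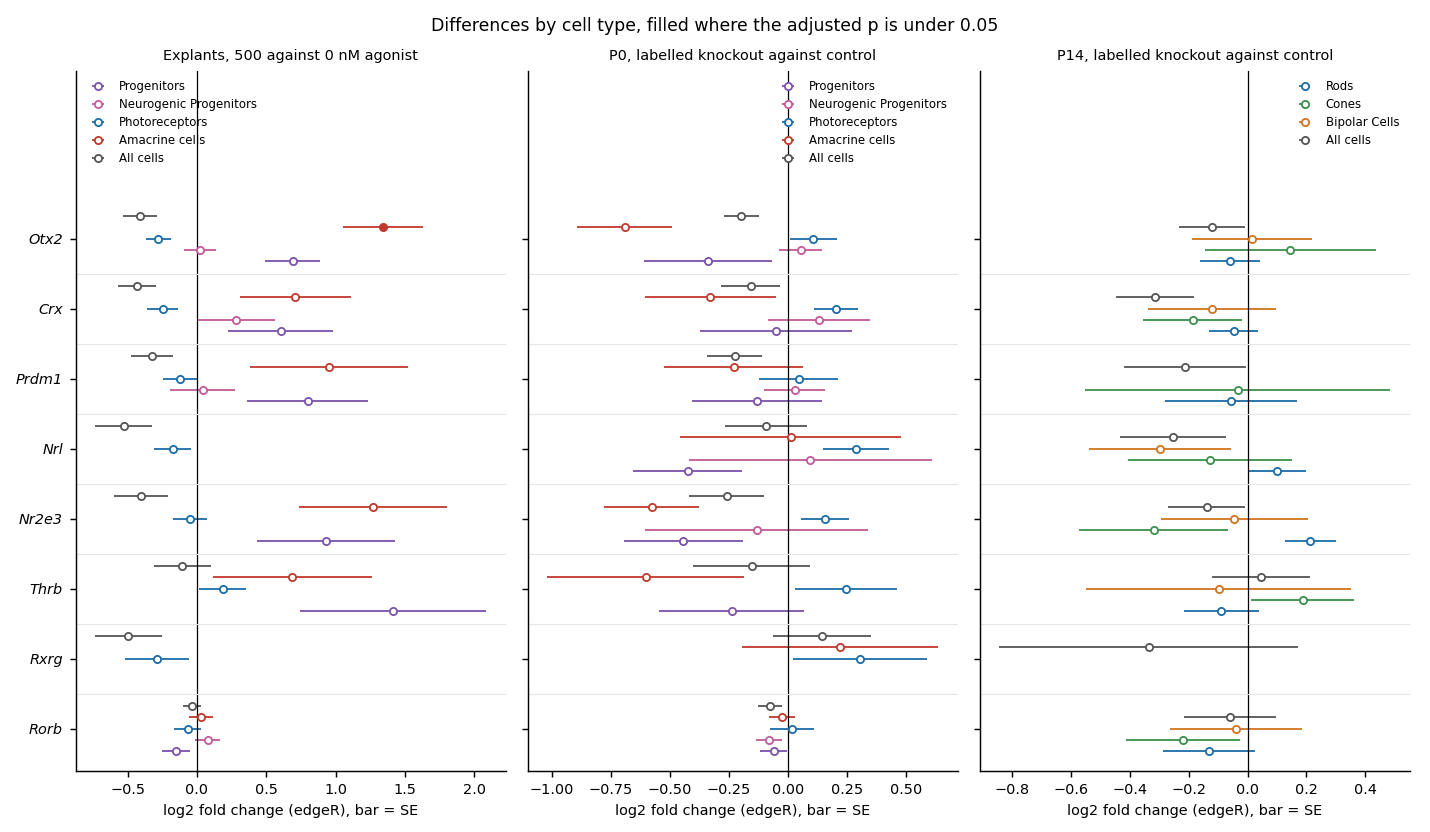
Log2 fold changes from edgeR (x axis, each panel on its own scale) with SE bars for the members that passed the count filter, by cell type, for 500 against 0 nM agonist and for samples labelled knockout against +/+ and +/- together at P0 and P14. A filled point marks an adjusted p under 0.05, which Otx2 in explant amacrine cells alone has, at 1.34.

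Across the 15 cell types of the 3 libraries, Nrl and Nr2e3 followed each other most closely among the members (Pearson r = 0.99 of log2(CPM + 10), a description over cell types that share libraries and depth). Otx2 was most like Prdm1 (0.87), and Rorb ran against Thrb (-0.50). Among 6755 genes, those closest to Nrl were Samd11 and Nr2e3 (0.99 each) and Samd7 (0.98), and to Nr2e3 the phosducin gene Pdc and Nrl (0.99 each) and Samd11 (0.98). Crx was closest to Sema3f (0.97), Abca4 (0.96), the retinal transporter of outer segments, and Trak2 (0.96). Otx2 was closest to Ankrd33b, Tlk2 and Igsf21 (0.91 each), Prdm1 to Pik3r1 (0.91), Glcci1 (0.89) and Shisa2 (0.89), and Thrb to Pcdh15 (0.95), Tulp1 (0.94) and Abhd3 (0.94). Rorb was closest to Mn1, Zfp609 (both 0.90) and Rbpj (0.87), and Rxrg, with the loosest matches, to Zdbf2 (0.84), Retreg2 and Rtl8a (0.80 each). The order depended on the pseudocount. With 1 in place of 10, genes named here that left the 5 closest were Igsf21 for Otx2 (0.81), Abca4 (0.92) and Trak2 (0.93) for Crx, Pcdh15 (0.92) and Abhd3 (0.91) for Thrb, Pik3r1 for Prdm1 (0.85), Samd7 for Nrl (0.97) and Samd11 for Nr2e3 (0.96).

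The genes around the members gave few calls. Of the listed regulators and partners, with Neurod1, Neurod4 and Rax the highest in explant photoreceptors at 1986, 664 and 476 CPM, 18 of 22 were tested there and none passed (2 at an unadjusted edgeR p under 0.05), with a median log2 fold change of 0.03 beside 0.003 for all genes. Of the 20 rod genes, led by Pdc, Sag (arrestin) and Rom1 at 2123, 1027 and 670.1 CPM, 16 were tested and none passed (3 at an unadjusted p under 0.05), with a median of -0.09. The rod list also holds Rcvrn and Aipl1, which served above as photoreceptor markers, so its median is not a measure of rods alone. Of the 12 cone genes, led by Gngt2, Gnb3 and the S opsin gene Opn1sw, 8 were tested with a median of 0.05, and 3 had an unadjusted edgeR p under 0.05. Of these, 1 was called and higher: Gngt2, the cone transducin gamma subunit, at 0.64 (SE 0.14, edgeR adjusted p = 0.0204). Of all 7440 genes tested there, 5.66% had an unadjusted edgeR p under 0.05 and 0.0941% were called.

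Gngt2 also rose at 500 nM in progenitors (2.08, SE 0.35, edgeR adjusted p = 0.000389) and amacrine cells (1.37, SE 0.26, edgeR adjusted p = 0.00150). In amacrine cells the cone transducin beta subunit gene Gnb3 rose as well (1.38, SE 0.31, edgeR adjusted p = 0.0225). Of all genes, 0.317% were called in progenitors and 0.269% in amacrine cells. The alternatives were run for the members alone, so no call of a list gene was checked under them. Both 500 nM samples also stood apart from both 0 nM samples in the sex of their cells. Over all cells 14 of the 16 rod genes tested had values below 0, with a median of -0.43 and no call. The rod genes tested in progenitors (7 of 20) and amacrine cells (4 of 20) had medians of 1.00 and 0.90 and no call. A sparse gene can pass the filter on low counts through the samples where it is high, so these medians are a description only.

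In P0 photoreceptors the lists had medians of 0.12 (19 regulators tested), 0.05 (16 rod genes) and 0.23 (9 cone genes, 8 of them above 0). Gngt2 alone was called among them, higher by 0.82 in the samples labelled knockout (SE 0.11, edgeR adjusted p = 0.0284), where 0.0209% of all genes were called. An unadjusted edgeR p under 0.05 was found for 3 regulators, 1 rod gene and 3 cone genes, beside 5.83% of all genes. Strain alleles carried along with the Sstr2 deletion in this outbred line cannot be told apart from the genotype. In P14 rods the medians were -0.01 (15 tested), 0.04 (20) and 0.16 (9), and no gene of the lists was called by edgeR. There 1 regulator and 1 cone gene had an unadjusted edgeR p under 0.05, beside 3.61% of all genes.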

How the data were processed

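Cells of 3 pooled 10x Chromium libraries were analysed as deposited, 8 explant samples, 5 P0 samples and 5 P14 samples, with the sample, condition and cell type of each cell from the metadata table that the authors deposited. Per the submitters' processing notes the authors used Cell Ranger 3.1.0, Seurat 3 and mm10. The raw matrices that the authors deposited hold whole UMI counts per gene and cell. The second matrices that the authors deposited hold SCTransform values on a natural log scale, ln(corrected count + 1), used in 1 alternative. Cells of a sample are not replicates, so the sums over the cells of 1 type in 1 sample (at least 10 cells) were tested with edgeR 4.0.16 (TMM, filterByExpr, quasi-likelihood test, Benjamini-Hochberg over all genes tested, threshold 0.05), in R 4.3.3. The explant fit had 4 dose groups, and P0 and P14 compared samples labelled knockout with +/+ and +/- together. CPM are UMIs per 1000000 UMIs of that sum, and levels are not compared between genes. Shares used cells thinned to 1500 UMIs (seed 1), and thinner cells were left out. For the doublet alternative, Scrublet (scanpy 1.11.5) marked 115, 7 and 2 cells. As 7 and 2 were under 0.5%, the 5% of highest score (301 and 177 cells) were left out there in that alternative. DESeq2 1.42.0 and limma 3.58.1 (pseudocount 1) were alternatives. On simulated counts with 200 genes changed 4-fold, edgeR recovered 89.5% in explant photoreceptors (7242 genes), 92% in P0 photoreceptors (9348 genes) and 94.5% in P14 rods (8814 genes), with 7, 4 and 12 false calls. The member changes in these cells were much smaller than 4-fold, and recovery at their size was not measured.

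The genes named are the 8 members, for each the 3 genes with the highest correlation over cell types (at least 50 CPM in 1 of them), the genes of 3 lists (22 regulators, 20 rod genes, 12 cone genes) that passed the test, and the 3 highest of each list. A gene of the lists that this rule would name is not reported here. The members and lists were chosen with earlier results of these data known. Intervals cover counting error only.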

Additional observations from a re-analysis of the deposited data

Results flagged for a closer look

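In 4 places a member's change in 2 cell types passed the test of the difference or had groups apart in opposite directions. Otx2 in amacrine cells against photoreceptors alone passed. Of all genes, 18.3% were apart and lower in explant photoreceptors, 16.6% apart and higher in amacrine cells and 22.8% in progenitors. At P0, 10.5% were apart and higher in photoreceptors and 10.5% apart and lower in amacrine cells. The share of genes apart in opposite directions was not counted. For Otx2 at 500 against 0 nM, the change in amacrine cells exceeded that in photoreceptors by 1.60 on the log2 scale (SE 0.27, edgeR adjusted p = 4.48e-05), and the change in progenitors exceeded it by 0.97 (SE 0.23, edgeR adjusted p = 0.0737). For Crx at P0, the change in amacrine cells of the samples labelled knockout minus that in photoreceptors was -0.53 (SE 0.29, edgeR adjusted p = 0.962), and for Nr2e3 it was -0.74 (SE 0.22, edgeR adjusted p = 0.697). Between ages, Crx was apart and higher in P0 photoreceptors of the samples labelled knockout and apart and lower in P14 rods and cones, with differences of -0.25 and -0.39, which were not tested. Of all genes, 8.88% were apart and lower in rods and 9.16% in cones.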

How the results depend on the processing

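Of 41 log2 fold changes of members followed through the alternatives, 16 changed sign in at least 1, all of them without a call: 17 of 294 values with no sample left out and 17 of 256 with 1 sample left out. The count of calls (a member in 1 cell type or in all cells) in the explants, 1 as reported, was 5 without a filter on low counts (Otx2 in amacrine cells, and Otx2, Crx, Nrl and Nr2e3 over all cells) and 0 with DESeq2, with limma on summed SCT values, without doublets, in cells with an Xist UMI and for the slope on log dose. With 1 sample left out it was 0 to 6, and it was 6 without the first 500 nM sample, the same 5 and Otx2 in progenitors. At P0 the count was 0, and 1 without the filter (Otx2 in amacrine cells, adjusted p = 0.0258), and with 1 sample left out it stayed at 0. At P14 it was 0 under all alternatives run. The difference of the Otx2 change between amacrine cells and photoreceptors was 1.21 without doublets, 1.41 in cells with an Xist UMI and 0.96 to 2.08 with 1 sample left out, and for progenitors 0.88, 1.26 and 0.51 to 1.31. These alternatives of the difference were chosen after seeing the data.

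Signs turned as follows, and the cause was not tested. In explants, Nr2e3 in photoreceptors was 0.15 in cells with an Xist UMI, and over all cells Thrb was 0.0071 with limma and 0.057 for the slope, and Rorb 0.00013 in cells with an Xist UMI. In P0 photoreceptors Prdm1 was -0.027 with limma, -0.0073 without doublets and -0.30 against the +/+ sample alone, where Rorb was -0.15 and Rxrg -0.045. In P14 rods Prdm1 was 0.14 with limma, 0.061 without doublets and 0.20 against +/- alone, and Rorb 0.15 against +/+ alone. In cones Nrl was 0.040 with DESeq2, 0.62 with limma and 0.50 against +/- alone, and Prdm1 0.00099 against +/+ alone. With 1 sample left out, explant photoreceptors gave -0.15 to 0.015 for Rorb and -0.58 to 0.012 for Rxrg, and all explant cells -0.28 to 0.21 for Thrb and -0.092 to 0.013 for Rorb. P0 photoreceptors gave -0.13 to 0.24 for Prdm1, -0.25 to 0.57 for Thrb, -0.052 to 0.10 for Rorb and -0.39 to 0.70 for Rxrg. P14 rods gave -0.21 to 0.20 for Prdm1, -0.23 to 0.045 for Thrb and -0.46 to 0.12 for Rorb, and cones -0.034 to 0.38 for Otx2, -0.39 to 0.49 for Nrl, -0.74 to 0.0052 for Nr2e3 and -0.063 to 0.42 for Prdm1.

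The cell type with the highest share of positive cells changed with the thinning for Rxrg at P0 (photoreceptors at 1500 UMIs, ganglion cells at 2500 and unthinned), and unthinned also for Crx at P14 (cones) and Rorb in explants (progenitors). No paired analysis was possible because neither the labels nor the cell metadata number the replicates in a way that ties samples across groups. A sex term at P14 was not run, as 1 sample alone, a control, had a high share of cells with Xist.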
